A study of Oryza sativa with 40 samples.

Results

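Heat shock factors and heat shock chaperones made up 67 of the 19308 rice genes measured. They were taken by product name: any name holding hsp20, HSF-type, DnaK family or heat shock protein, in upper or lower case, and not DnaJ. That search found 69 genes, and 2 of them (LOC_Os02g02410 and LOC_Os06g50300) were left out. The 67 members fall into 14 heat shock factors (HSF), 19 small heat shock proteins of the hsp20 family, 16 HSP70 chaperones of the DnaK family and a mixed set of 18. The mixed set holds 7 genes named only heat shock protein, 3 activators of the HSP90 ATPase, 2 STI co-chaperones, 2 U-box proteins and 1 each of HSP101, a calmodulin-binding protein, a heat shock protein binding protein and a heat shock protein-related gene. Of the 7, 6 are known as HSP90 genes in rice (LOC_Os04g01740, LOC_Os08g38086, LOC_Os08g39140, LOC_Os09g29840, LOC_Os09g30412 and LOC_Os12g32986) and 1 as the small heat shock protein HSP22.3. Symbols for 25 members were assigned from background knowledge and matched RefSeq symbols on the same chromosome. HSFA2B, HSFA2C, HSFA2D and HSFA2E were measured but carry another product name, so they are not members.

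Heat shock factors are transcription factors that bind heat shock elements in promoters. In tomato and Arabidopsis, class A factors activate chaperone genes, with HSFA1 as the entry point, whereas class B and class C factors lack the activation motif of class A. The chaperones share the work on unfolded proteins: small heat shock proteins hold them, HSP70 refolds them with ATP, HSP90 matures client proteins such as kinases and receptors, and HSP101 pulls proteins out of aggregates together with HSP70. Many HSP70 and HSP90 genes are also used in unstressed cells, as leaf organelles import and fold proteins all day.

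The leaves came from rice cultivar IR64 grown hydroponically at 30 °C by day and 25 °C by night, called warm. Of the tanks, 4 were moved to 40/35 °C (hot), 4 to 25/20 °C (cold) and 4 stayed warm. Mid-leaf sections, from leaves already full-grown at the move, were frozen at 0 h (warm only), 2 h, 6 h and 24 h, always by day, with 0 h and 24 h at the same time of day. There are 10 groups of 4 libraries of total RNA depleted of ribosomal RNA. No label ties a library to its tank, so the p-values measure the spread between these libraries.

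Libraries held 1830817 to 9628451 reads on genes, with a median of 5853252, and 3 reads corresponded to 0.293 to 2.06 reads per 1000000 of a scaled library size (CPM), depending on the library. Such floors cover counting error only. The 4 leaf photosynthesis markers (RCA, 2 RBCS genes and PSBS1) were all measured and summed to between 7454 and 172320 CPM in every library, as the leaf label implies. A pair of libraries correlated less with their group than the others: warm 0 h replicate 1 (mean r = 0.860) and hot 24 h replicate 1 (mean r = 0.894). Lanes largely followed temperature, with warm in lanes 1 and 2, hot in lanes 2 and 3, and cold in lanes 3 and 4. Of the members, 52 had reads in every library and 15 had 0 reads in some.

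Together the members took 0.370 to 0.853% of the reads of a library. HSP70 genes took 0.236 to 0.637%, and the heat shock factors no more than 0.0661%. These are shares of reads, not levels per length. The HSP70 genes LOC_Os11g47760 and LOC_Os05g23740 supplied 16.01% and 13.1% of all member reads, and the HSP90 gene LOC_Os08g39140 supplied 6.32%. HSFA1 (LOC_Os03g63750, chromosome 3, 35989011 to 35992635 in IRGSP-1.0) supplied the most reads among heat shock factors, and LOC_Os03g45340 among small heat shock proteins. At the other end, HSFA2A, HSP18.1, LOC_Os03g16920 and LOC_Os04g01740 had the fewest reads of their subfamilies, with 151, 151, 389 and 195 reads over all 40 libraries. Changes of such genes rest on few reads.

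In leaves that stayed warm, the members moved mostly downward over the day. From 0 h to 6 h, 27 of 67 fell and 7 rose, where 19.6% of all genes fell and 24.3% rose. The median change was -0.55 on the log2 scale, beside 0.08 over all genes. By subfamily, 4 of 14 heat shock factors fell and 1 rose, 5 of 19 small heat shock proteins fell and 1 rose, 8 of 16 HSP70 genes fell and 1 rose, and 10 of the 18 others fell and 4 rose. The medians were -0.16, -0.47, -0.58 and -1.11. This comparison, and that of 24 h with 0 h, were added after the data were seen. In bulk leaf tissue, fewer cells of a type and less of an RNA per cell cannot be told apart.

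**Figure D1:**
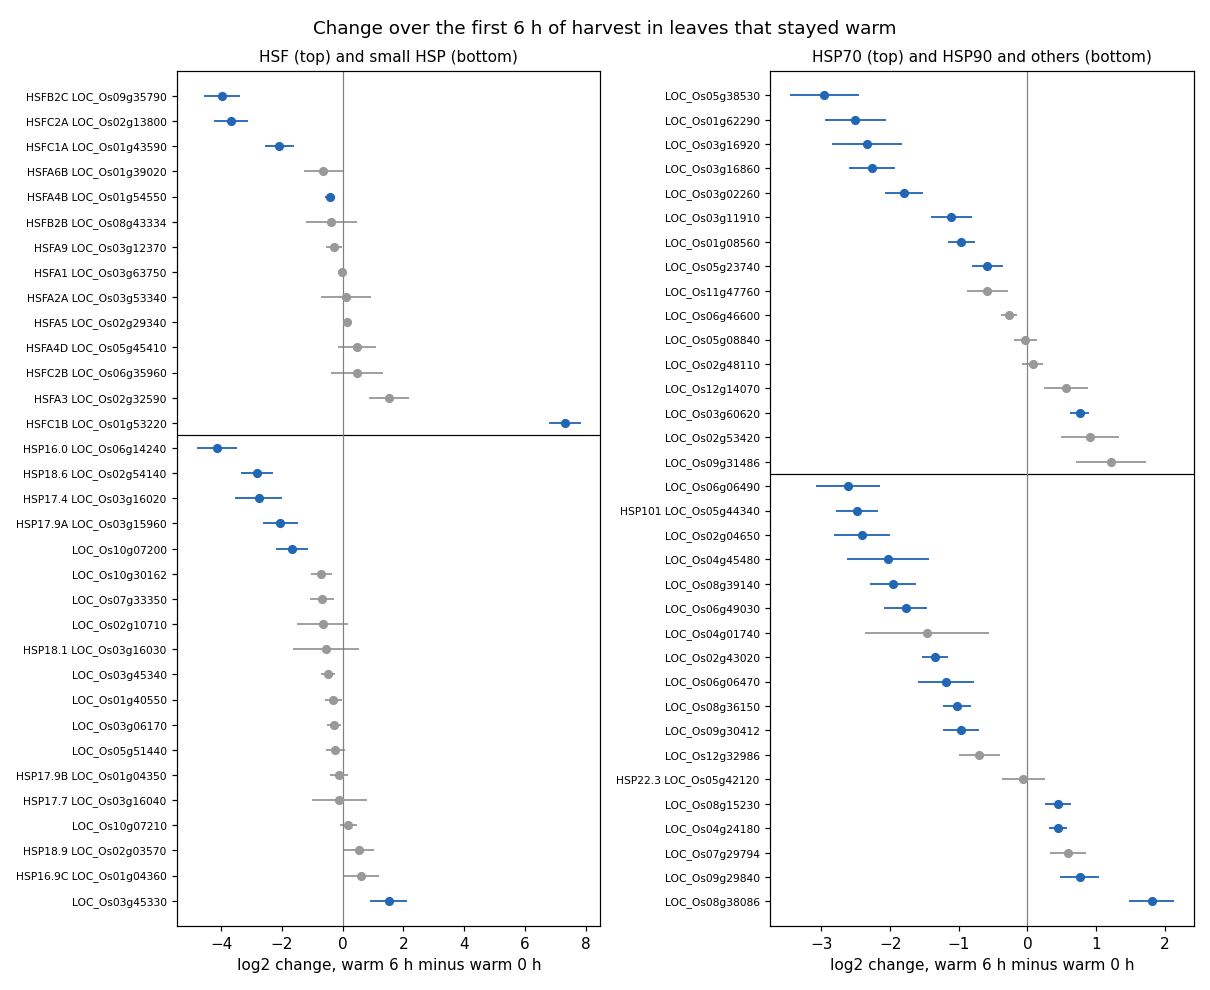
Fitted log2 change from warm 0 h to warm 6 h (x axis) of each of the 67 members, with bars of 1 SE. Blue points passed an adjusted p of 0.05 over all genes (27 lower, 7 higher) and grey points did not. HSFC1B stands far to the right, with only 2 reads in the 4 warm 0 h libraries.

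HSP101 (LOC_Os05g44340, chromosome 5, 25803530 to 25807160), the disaggregating chaperone, had 48.3, 50.5, 31.4 and 18.8 CPM in the 4 warm 0 h libraries and 4.89, 6.19, 8.50 and 5.57 CPM at 6 h. The hours did not overlap, and HSP101 fell by 2.48 ± 0.30 (SE, adjusted p = 2.34e-08). At 24 h it was back at 27.4, 32.5, 32.3 and 18.99 CPM. The HSP90 gene LOC_Os08g39140 had 454, 1177, 494 and 342 CPM at 0 h, 136, 100, 143 and 202 CPM at 6 h, and 527, 696, 605 and 671 CPM at 24 h. Its 6 h libraries were all below its libraries of the other hours shown, and it fell by 1.96 ± 0.34 from 0 h to 6 h (adjusted p = 1.30e-05). Around HSP90, both STI co-chaperones, which link HSP70 to HSP90, fell (LOC_Os02g43020 by 1.35 ± 0.19, LOC_Os04g45480 by 2.03 ± 0.59). LOC_Os04g45480 had 2, 29, 10 and 12 reads at 0 h and 7, 6, 0 and 7 reads at 6 h. Its groups overlapped in CPM, and its call was lost without warm 6 h replicate 3. All 3 activators of the HSP90 ATPase fell as well, LOC_Os02g04650 by 2.41, LOC_Os06g49030 by 1.77 and LOC_Os08g36150 by 1.02, as did the U-box genes LOC_Os06g06490 (2.61) and LOC_Os06g06470 (1.19) and the HSP90 gene LOC_Os09g30412 (0.97). LOC_Os06g06470 and LOC_Os09g30412 had overlapping groups. The LOC_Os06g06470 call held in 6 of the 8 fits that each left out a library. A pair of HSP90 genes rose instead. LOC_Os08g38086 had 10.03, 64.9, 38.3 and 27.1 CPM at 0 h and 88.2, 109, 112 and 96.4 CPM at 6 h, without overlap (1.81 ± 0.33, adjusted p = 2.79e-05), and LOC_Os09g29840 rose by 0.76 ± 0.28, with overlapping groups. The heat shock protein binding gene LOC_Os04g24180 (0.45 ± 0.13) and LOC_Os08g15230 (0.44 ± 0.18) rose too. The calls of LOC_Os08g15230 and LOC_Os09g29840 held in 2 and 4 of the 8 fits that each left out a library. That of LOC_Os08g15230 held in 5 of 10 alternatives.

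Several HSP70 genes had deep troughs at 6 h. LOC_Os05g38530 had 150, 244, 151 and 59.0 CPM at 0 h, 24.9, 6.19, 20.3 and 27.9 CPM at 6 h and 202, 176, 193 and 163 CPM at 24 h. The 6 h libraries lay below all others, and the fall from 0 h was 2.96 ± 0.50 (adjusted p = 1.05e-05). LOC_Os01g62290 fell by 2.51 ± 0.44, LOC_Os03g16920 by 2.34 ± 0.51, LOC_Os03g16860 by 2.27 ± 0.34, LOC_Os03g02260 by 1.80 ± 0.28, LOC_Os03g11910 by 1.11 ± 0.30, LOC_Os01g08560 by 0.96 ± 0.19 and LOC_Os05g23740 by 0.59 ± 0.23. The call of LOC_Os05g23740 held in 3 of the 8 fits that each left out a library. LOC_Os03g60620 was the HSP70 gene that rose, by 0.76 ± 0.14.

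Among small heat shock proteins, HSP16.0 (LOC_Os06g14240, chromosome 6, 7940906 to 7941692) had 25.2, 83.2, 21.2 and 11.9 CPM at warm 0 h and 1.01, 0.539, 1.75 and 4.39 CPM at 6 h. All 4 later libraries were below all 4 earlier ones, and the fall of 4.15 ± 0.66 (adjusted p = 3.79e-06) was the largest of the 67 members. HSP18.6 (LOC_Os02g54140) fell by 2.82 ± 0.53, HSP17.4 (LOC_Os03g16020) by 2.77 ± 0.78, HSP17.9A (LOC_Os03g15960) by 2.06 ± 0.57 and LOC_Os10g07200 by 1.66 ± 0.54. HSP17.4 had 23, 34, 2 and 2 reads at 0 h and 2, 1, 0 and 6 reads at 6 h, so its groups overlapped. The rise of LOC_Os03g45330 (1.51 ± 0.61) rested on 0 to 6 reads a library at 0 h, and was lost in 8 of 9 alternatives.

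The heat shock factors split. HSFB2C (LOC_Os09g35790), of class B, had 123, 121, 35.3 and 29.8 CPM at 0 h and 5.04, 0.808, 4.25 and 13.3 CPM at 6 h. The hours did not overlap, and it fell by 3.97 ± 0.58 (adjusted p = 8.65e-07). The class C factors HSFC2A (LOC_Os02g13800) and HSFC1A (LOC_Os01g43590) fell by 3.67 ± 0.56 and 2.09 ± 0.47, and HSFA4B (LOC_Os01g54550) by 0.41 ± 0.16. The HSFA4B call held in 3 of the 8 fits that each left out a library. HSFC1B (LOC_Os01g53220), also of class C, went the other way: it had 2, 0, 0 and 0 reads at 0 h and 17.41, 26.4, 44.3 and 24.8 CPM at 6 h. Its pooled reads, 748 against 2, gave a ratio of 235 (95% counting interval 64.8 to 1945). Hot leaves at 6 h had 24.4, 32.7, 24.8 and 35.6 CPM of HSFC1B and cold leaves 27.6, 35.9, 35.7 and 44.1 CPM. By 24 h it was between 0 and 0.916 CPM at every temperature. HSFA1 changed little, from 83.8 to 124 CPM at 0 h and 84.3 to 97.4 CPM at 6 h (change -0.04, 95% interval -0.29 to 0.22).

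Over warm 0, 2, 6 and 24 h, 31 of 67 members passed the F test for any change, where 44.7% of all genes did: 5 heat shock factors, 5 small heat shock proteins, 9 HSP70 genes and 12 of the others. The F test also took in HSFA3 (LOC_Os02g32590), HSP90 gene LOC_Os12g32986 and LOC_Os10g30162, which the 6 h comparison had not. HSFA3 had 257, 7.98, 9.47 and 8.03 CPM at warm 0 h, where replicate 1 stood far above its group, and 83.4, 104, 113 and 86.3 CPM at 2 h. From 0 h to 24 h only LOC_Os10g30162 fell (by 1.21 ± 0.35, adjusted p = 0.0484) and 0 rose, where 1.34% of all genes fell and 1.58% rose. That call was lost in 5 of 10 alternatives and without warm 0 h replicates 1 or 3 or any 1 of the warm 24 h libraries. Without warm 0 h replicate 2, 8 members passed, while the calls over all genes went from 564 to 1507.

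**Figure D2:**
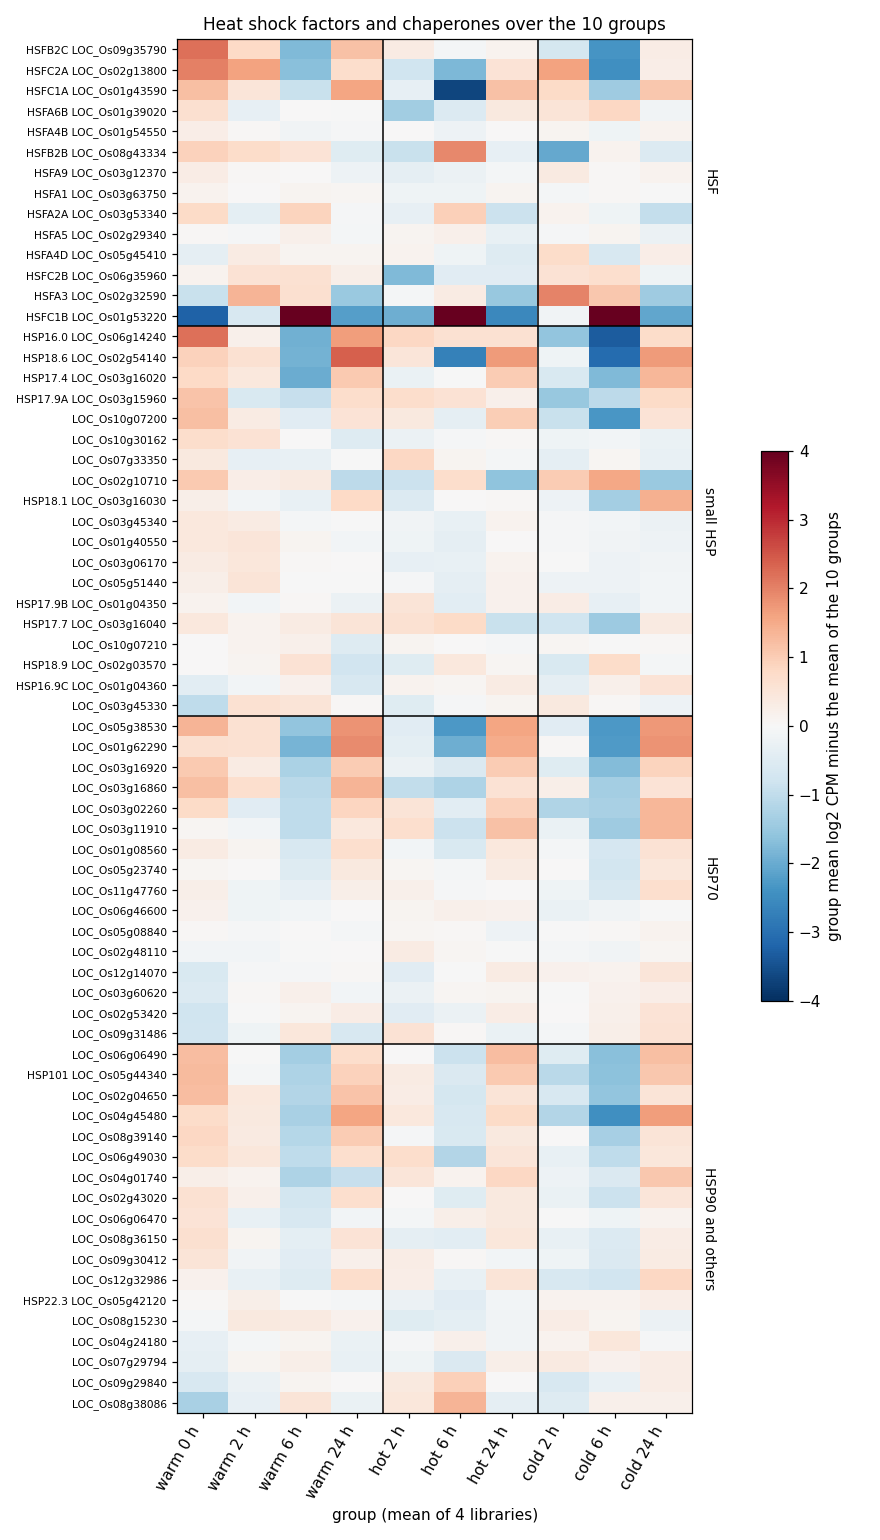
Group mean log2 CPM of the 67 members (y axis, by subfamily) in the 10 groups (x axis), as the difference from each member's mean over the groups; colours end at 4 above and 4 below, which HSFC1B passes. HSP70 gene LOC_Os05g38530 is lowest in the 6 h column of each temperature, whereas HSP90 genes LOC_Os08g38086 and LOC_Os09g29840 are highest at hot 6 h.

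Means of 2, 6 and 24 h were compared at each temperature. Of all 67 members, 33 in warm, 34 in hot and 40 in cold leaves were lowest at 6 h. That share was not counted over all genes. Of the 27 members that fell in warm leaves, 27 had their lowest mean of 2, 6 and 24 h at 6 h in warm leaves, 23 in hot leaves and 26 in cold leaves. Since warm 6 h chose these genes, the warm count and the warm median that follows are descriptions. The same share was not counted over all genes that fell in warm leaves. The hot and cold counts and medians therefore describe these members only. From 6 h to 24 h their median difference was 2.13 in warm, 1.32 in hot and 2.60 in cold leaves on the log2 scale. The 4 photosynthesis markers moved with the hours too: their summed level had a median of 89111 CPM (47963 to 113320) at warm 0 h, 19655 (7454 to 39515) at 6 h and 84851 (66913 to 121930) at 24 h. The 32 dividing-cell genes summed to 774 to 1350 CPM at warm 0 h and 547 to 926 CPM at 6 h, and the guard cell gene SLAC1 had 21.8 to 38.5 and 11.4 to 17.8 CPM. The 4 vascular markers summed to 33.5 to 84.0 CPM at warm 0 h, 27.9 to 48.0 CPM at 6 h and 69.3 to 93.9 CPM at 24 h. The part of these shifts in the members' course was not tested.

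Leaves moved to 40/35 °C were set against warm leaves of the same hour. At 2 h, 2 of 67 were higher and 4 lower, where 3.63% of all genes were higher and 4.58% lower. At an unadjusted p under 0.05 there were 22 members (32.8%), beside 23.6% of all genes. The median change was -0.18, beside 0.01 over all genes. Heat shock factors had a median of -0.66 and small heat shock proteins of -0.44, with 1 member lower in each, while HSP70 (-0.07, 2 higher and 1 lower) and the others (0.05, 1 lower) lay nearer to 0. The difference between subfamilies was not tested.

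The clearest fall was that of the HSP70 gene LOC_Os03g16860 (chromosome 3, 9370159 to 9373083), a large source of HSP70 reads. It had 872, 363, 1200 and 674 CPM in warm and 212, 345, 224 and 154 CPM in hot leaves at 2 h. The highest hot library was just under the lowest warm one, and the change was -1.66 ± 0.34 (adjusted p = 0.00206). Another HSP70 gene, LOC_Os03g02260 (chromosome 3, 766648 to 771264), went the other way, with 44.9, 20.1, 26.3 and 32.1 CPM in warm and 50.03, 60.2, 65.8 and 53.8 CPM in hot leaves. Its hot libraries were all higher, and it rose by 0.95 ± 0.28 (adjusted p = 0.0292), which held in 3 of the 8 fits that each left out a library. LOC_Os02g48110 rose by 0.46 ± 0.15 (adjusted p = 0.0497), which held in 1 of those 8 fits.

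The heat shock protein-related gene LOC_Os08g15230 (chromosome 8, 9224161 to 9228110) had 331, 249, 281 and 262 CPM in warm and 165, 184, 130 and 134 CPM in hot leaves at 2 h. No hot library reached a warm one, and it fell by 0.88 ± 0.18 (adjusted p = 0.00279). HSFC2A had 9.30, 16.4, 23.3 and 15.8 CPM in warm and 5.06, 5.52, 1.12 and 2.04 CPM in hot leaves, again without overlap, and fell by 2.40 ± 0.56 (adjusted p = 0.00638). The small heat shock protein LOC_Os03g06170 fell by 0.79 ± 0.22, from 23.1 to 42.4 CPM in warm to 15.9 to 19.8 CPM in hot leaves. LOC_Os03g16860 and LOC_Os08g15230 passed in all 10 alternatives and without each of the 8 libraries. With lane as a term only those 2 of the 6 passed, and leaving out warm replicate 3 or hot replicates 3 or 4 left 3 calls each.

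Many members that are textbook heat markers did not pass in hot leaves at 2 h. HSP101 had 15.1, 7.75, 21.8 and 13.2 CPM in warm and 17.8, 18.3, 20.1 and 16.7 CPM in hot leaves. The groups overlapped, with a change of 0.42 (95% interval -0.19 to 1.04). HSP17.9A had 3.52, 2.37, 7.46 and 4.08 CPM in warm and 8.37, 6.23, 15.1 and 13.2 CPM in hot leaves, a change of 1.32 ± 0.57 (adjusted p = 0.151). HSP16.0 was at 0.63 (95% interval -0.72 to 1.98), HSP90 genes LOC_Os08g38086 and LOC_Os09g29840 at 0.78 ± 0.33 and 0.61 ± 0.28, LOC_Os08g39140 at -0.40 ± 0.34 and HSFA1 at -0.18 ± 0.13.

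At 6 h, 1 member was higher and 2 lower in hot than in warm leaves, where 2.39% of all genes were higher and 4.51% lower. At an unadjusted p under 0.05 there were 14 members (20.9%), beside 20.1% of all genes. The median change was 0.03 for all members, and 0.47 for the mixed set with HSP90, beside -0.04 over all genes. HSP16.0 had 1.01, 0.539, 1.75 and 4.39 CPM in warm and 6.65, 21.7, 5.04 and 7.98 CPM in hot leaves. All hot libraries were higher, and the rise was 2.53 ± 0.66 (adjusted p = 0.0153). In 3 of 4 hot libraries the level at 6 h was below the 11.9 to 83.2 CPM of warm 0 h. HSFC1A had 1.15, 3.64, 4.75 and 0.683 CPM in warm leaves and 4, 0, 3 and 1 reads in the hot libraries, at or near the floor. It fell by 2.79 ± 0.47 (adjusted p = 0.000187), a value that depends on the offset and was -1.32 with the log2 of CPM plus 1. LOC_Os08g15230 was lower again, at 172, 161, 176 and 154 CPM in hot against 287, 251, 312 and 261 CPM in warm leaves (-0.74 ± 0.18, adjusted p = 0.0103). With lane as a term only HSFC1A passed, and HSP16.0 was lost without warm replicates 1 or 2 or hot replicate 2, each leaving 2 calls.

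**Figure D3:**
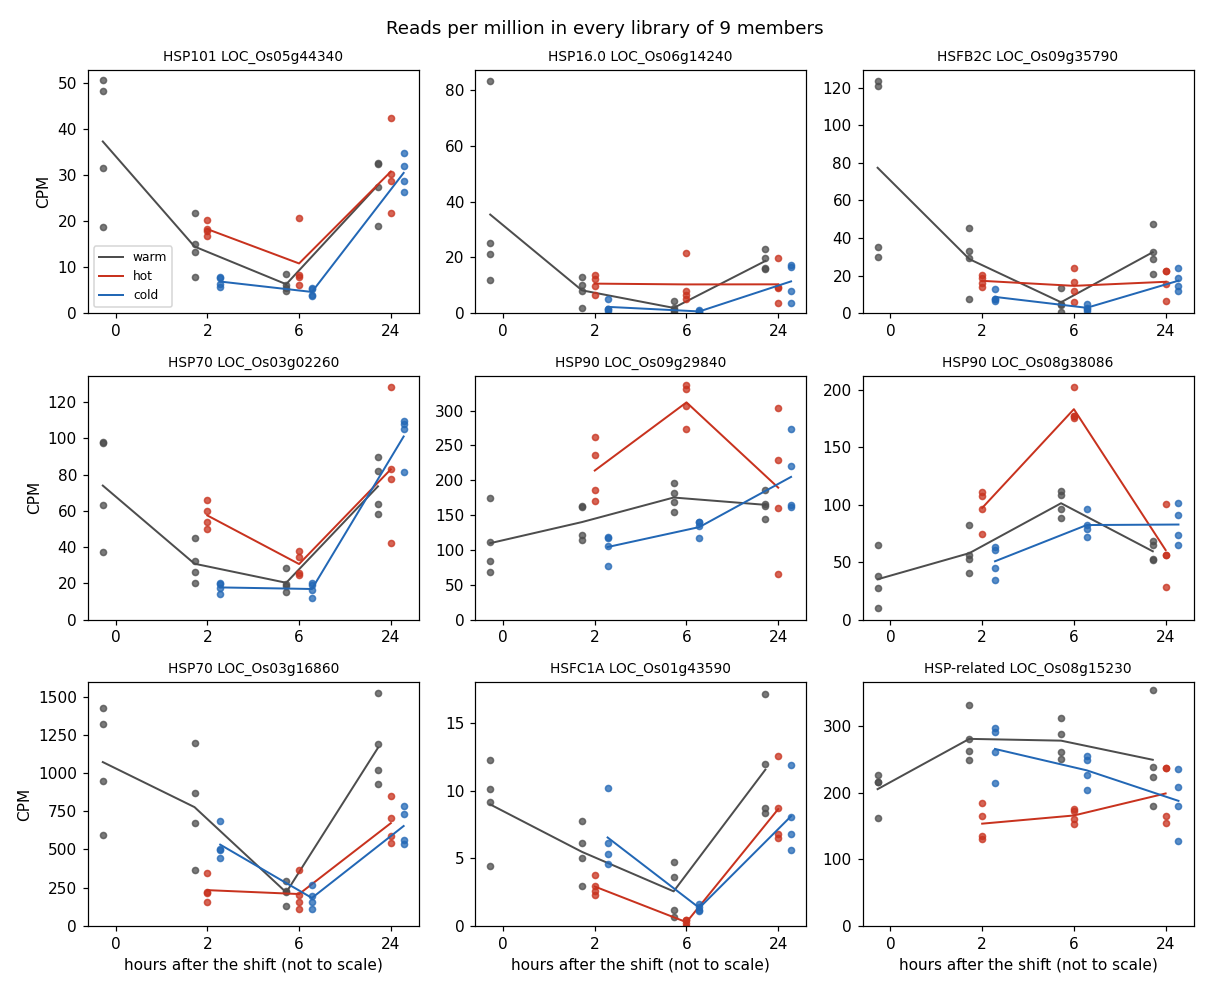
CPM (y axis, linear from 0) of 9 members in every library at 0, 2, 6 and 24 h (x axis, not to scale); points are libraries and lines join group means of 4. HSP90 genes LOC_Os09g29840 and LOC_Os08g38086 are highest in hot leaves at 6 h, and HSP101 is lowest at 6 h at each temperature.

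Cold leaves at 25/20 °C had no member past the threshold against warm leaves of the same hour. The limma counts were 0 of 67 at 2 h, 6 h and 24 h, where the share over all genes was 0% each time, and 0 with voom weights too. At an unadjusted p under 0.05 there were 14, 4 and 7 members, beside 1251, 869 and 1457 of all 19308 genes. The median change at 2 h was -0.53 for small heat shock proteins and -0.34 for the mixed set with HSP90, with 2 of 19 and 3 of 18 members above 0, beside 0.18 for heat shock factors. HSP101 had 7.76, 6.33, 7.68 and 5.72 CPM in cold leaves at 2 h, of which 1 lay above the lowest warm library (7.75 CPM), and was at -0.98 ± 0.30 (adjusted p = 0.529). HSFB2B was at -2.75 ± 0.85, HSP16.0 at -1.77 ± 0.66, the STI gene LOC_Os04g45480 at -1.57 ± 0.59 and HSP70 gene LOC_Os05g38530 at -1.08 ± 0.50. HSFB2B had 0, 11, 4 and 0 reads in cold and 20, 4, 22 and 21 reads in warm libraries. Its groups overlapped, and its value ran from -4.47 to -1.23 over the alternatives. The largest values above 0 at 2 h were HSFA6B (0.85 ± 0.63) and LOC_Os02g10710 (0.74 ± 0.84), which also had few reads. At 6 h the extremes were LOC_Os10g07200 (-1.85 ± 0.54) and LOC_Os02g10710 (1.17 ± 0.84), both with few reads.

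At 2 h and 6 h, hot and cold leaves set directly against each other differed in more members than either did from warm leaves. All genes did the same, with 2907 calls beside 1584 and 0 at 2 h, and 1599 beside 1333 and 0 at 6 h. The hot against cold comparison uses no warm library and equals the difference between the hot and the cold change at that hour. It shares its hot libraries with the comparisons above. At 2 h, 12 of 67 members were higher and 6 lower in hot leaves, where 6.73% of all genes were higher and 8.32% lower. Heat shock factors had 0 higher and 4 lower of 14, small heat shock proteins 3 higher of 19, HSP70 4 higher and 1 lower of 16, and the others 5 higher and 1 lower of 18. Their medians were -0.65, 0.15, 0.09 and 0.49, beside 0.03 over all genes, and the difference between subfamilies was not tested.

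**Figure D4:**
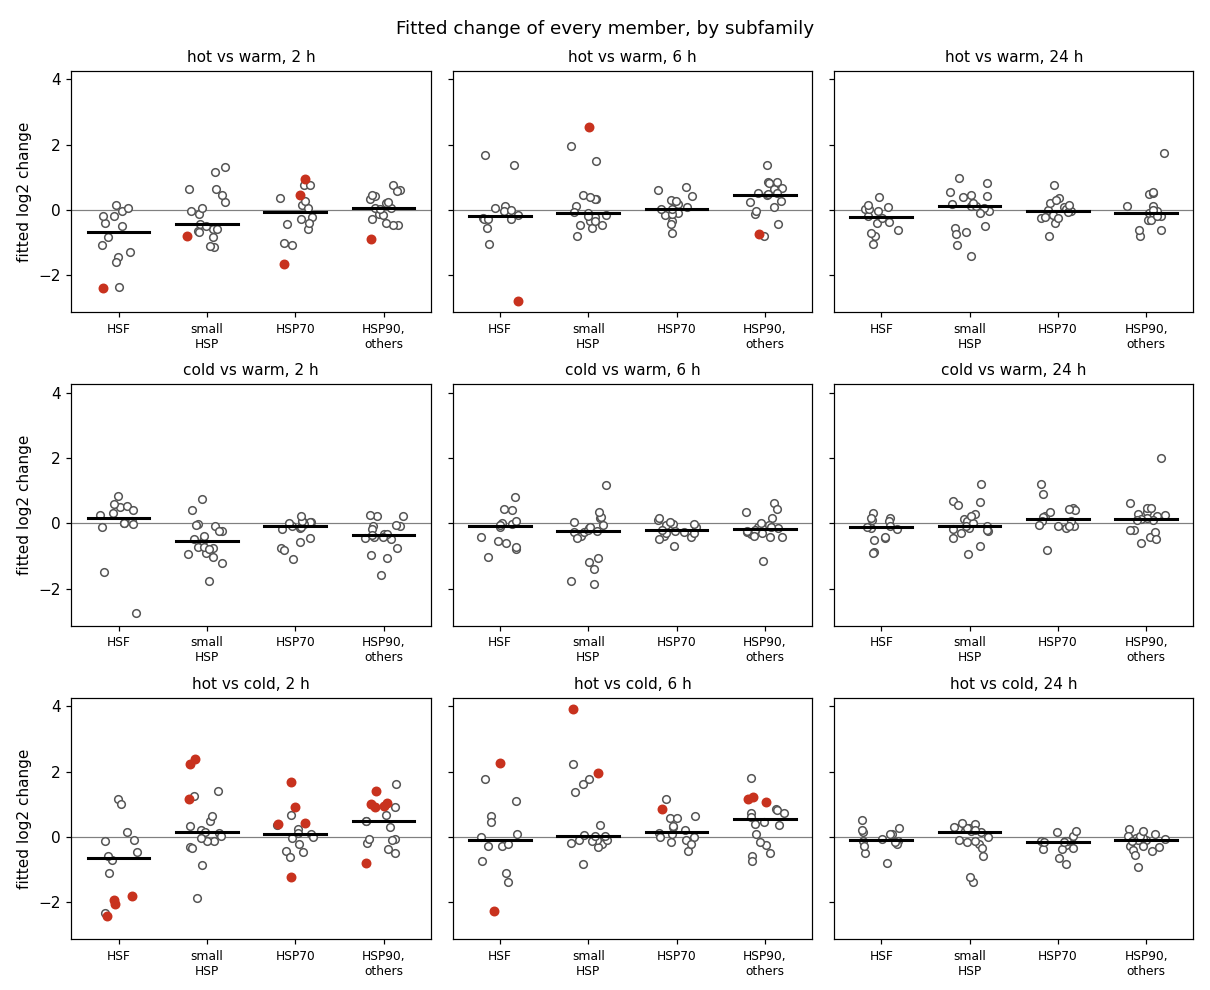
Fitted log2 change (y axis) of every member by subfamily (x axis) for hot against warm, cold against warm and hot against cold at 2, 6 and 24 h. Red points passed an adjusted p of 0.05 over all genes, open points did not, and black bars are medians; the cold-against-warm panels and all 24 h panels hold no red point.

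HSP70 gene LOC_Os03g02260 had the smallest p of the members at 2 h. It had 20.0, 19.6, 17.3 and 14.1 CPM in cold leaves, all below the 50.03 to 65.8 CPM of hot leaves, a difference of 1.70 ± 0.28 (adjusted p = 6.91e-05). HSP101 followed, with 5.72 to 7.76 CPM in cold and 16.7 to 20.1 CPM in hot leaves (1.40 ± 0.30, adjusted p = 0.00157). For HSP101 the warm libraries spanned 7.75 to 21.8 CPM, and neither the hot nor the cold shift passed against them at 2 h.

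Of the 6 HSP90 genes, 3 were higher in hot than in cold leaves at 2 h and 3 did not pass. LOC_Os09g29840 (chromosome 9, 18150618 to 18155512) had 171, 187, 262 and 237 CPM in hot and 118, 117, 76.6 and 105 CPM in cold leaves (1.04 ± 0.28, adjusted p = 0.0108). Every hot library was above every cold one, with warm leaves between 115 and 163 CPM. LOC_Os08g38086 (0.96 ± 0.33) and LOC_Os12g32986 (0.92 ± 0.29) also passed, as did the ATPase activator LOC_Os06g49030 (1.00 ± 0.31). With each of the 8 libraries left out in turn, the calls of LOC_Os08g38086 and LOC_Os12g32986 held in 3 and 2 fits. The HSP90 gene with the most reads, LOC_Os08g39140, had 262, 363, 319 and 256 CPM in hot and 289, 457, 286 and 256 CPM in cold leaves. Those ranges overlapped, and its difference was -0.08 (95% interval -0.77 to 0.61).

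Small heat shock proteins that passed at 2 h were HSP16.0, HSP17.9A and LOC_Os07g33350. HSP17.9A had 8.37, 6.23, 15.1 and 13.2 CPM in hot and 1.44, 3.76, 2.69 and 1.23 CPM in cold leaves. The groups did not overlap (2.24 ± 0.57, adjusted p = 0.00705). HSP16.0 had 9.76, 13.9, 12.3 and 6.52 CPM in hot and 1.62, 5.14, 0.960 and 1.43 CPM in cold leaves, also without overlap (2.40 ± 0.66, adjusted p = 0.0123). LOC_Os07g33350 was at 1.16 ± 0.41, and the HSP70 genes LOC_Os03g11910, LOC_Os02g48110 and LOC_Os06g46600 at 0.92 ± 0.30, 0.43 ± 0.15 and 0.39 ± 0.12. Of the 8 fits that each left out a library, the calls of these genes held in 1, 2, 2 and 5, in that order. LOC_Os07g33350 and LOC_Os02g48110 each passed in 6 of 10 alternatives.

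Lower in hot than in cold leaves at 2 h were HSFC2A (-2.41 ± 0.56), HSFA3 (-2.06 ± 0.66), HSFA6B (-1.92 ± 0.63) and HSFC1B (-1.81 ± 0.53). HSFA3 had 37.5, 38.99, 31.9 and 32.6 CPM in hot, 83.4, 104, 113 and 86.3 CPM in warm and 99.1, 172, 186 and 144 CPM in cold leaves. The hot libraries were below all warm and cold ones, though hot against warm did not pass and the call against cold held in 2 of the 8 fits that left out a library. HSFC1B had 3, 4, 1 and 1 reads in hot and 5, 8, 7 and 8 reads in cold libraries, and HSFA6B 3, 0, 2 and 1 against 6, 5, 8 and 2 reads, so the values of both rest on few reads. LOC_Os03g16860 (-1.23 ± 0.34) and LOC_Os08g15230 (-0.79 ± 0.18) were lower too, as against warm leaves.

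Of these 18 calls, HSFC2A, LOC_Os03g02260, HSP17.9A, HSP101 and LOC_Os08g15230 passed in every alternative and without each library. With lane as a term 9 of the 18 passed, and leaving out 1 library left 7 to 14 calls (7 without hot replicate 4, 9 without cold replicate 3, 10 without hot replicate 3). Lane 3 held 2 hot libraries and 1 cold library of 2 h, too few for a test. Within that lane LOC_Os03g02260 differed by 1.57, HSP101 by 1.23 and HSFC2A by -2.54, values that reuse libraries behind the calls. The photosynthesis markers summed to 27634 to 57726 CPM in hot and 51984 to 76943 CPM in cold leaves at 2 h. The 4 vascular markers summed to 30.96 to 34.2 and 37.2 to 53.9 CPM, without overlap, and the part of both lists in these differences was not tested.

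At 6 h, 7 members were higher and 1 lower in hot than in cold leaves, where 3.17% of all genes were higher and 5.11% lower. HSP16.0 differed by 3.92 ± 0.66 (adjusted p = 0.000172), with 5.04 to 21.7 CPM in hot leaves and 1, 3, 11 and 4 reads in the cold libraries (0.134, 0.417, 1.22 and 0.809 CPM). HSP90 gene LOC_Os09g29840 had 331, 336, 306 and 274 CPM in hot, 154, 169, 196 and 181 CPM in warm and 140, 135, 140 and 117 CPM in cold leaves. The 3 temperatures did not overlap, and hot exceeded cold by 1.23 ± 0.28 (adjusted p = 0.00432), while hot against warm (0.83 ± 0.28) had an adjusted p of 0.0673. LOC_Os08g38086 (chromosome 8, 24124838 to 24129488) had 202, 177, 176 and 177 CPM in hot, 88.2, 109, 112 and 96.4 CPM in warm and 82.6, 71.5, 95.9 and 79.3 CPM in cold leaves. Hot libraries were again above all others, with a difference from cold of 1.16 ± 0.33 (adjusted p = 0.0220) and from warm of 0.86 ± 0.33 (adjusted p = 0.116).

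HSFB2C had 12.1, 24.1, 5.78 and 16.4 CPM in hot and 2.94, 1.39, 5.01 and 2.22 CPM in cold leaves at 6 h. The groups did not overlap (2.27 ± 0.58, adjusted p = 0.0109), and against warm leaves it was at 1.69 ± 0.58 (adjusted p = 0.0740). HSP101 had 6.20, 20.8, 7.86 and 8.37 CPM in hot and 4.00, 5.42, 3.78 and 5.26 CPM in cold leaves, where hot replicate 2 stood far above its group (1.06 ± 0.30, adjusted p = 0.0220). LOC_Os03g02260 was at 0.86 ± 0.28, a call that held in 0 of the 8 fits that each left out a library, and LOC_Os10g07200 at 1.97 ± 0.54, the latter on 2 to 5 reads a library in hot and 0 to 2 in cold leaves. HSFC1A was lower in hot leaves (-2.26 ± 0.47). HSP16.0 and LOC_Os09g29840 passed in every alternative and without each library. Adding lane to the model kept 4 of the 8 and voom weights kept 4, though not all the same ones, and leaving out cold replicates 1 or 2 or hot replicate 2 left 4, 5 and 5 calls. Hot replicate 2 was the highest of its group for 39 of 67 members. The HSP101 and HSFB2C calls were lost without it. At 6 h the vascular markers summed to 15.6 to 33.4 CPM in hot and 36.045 to 48.9 CPM in cold leaves, without overlap, and their part in these differences was not tested.

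By 24 h no temperature comparison called a member. The counts were 0 of 67 for hot against warm and hot against cold, where the share over all genes was 0% in both, with 3 and 2 members at an unadjusted p under 0.05, beside 1206 and 1469 of all 19308 genes. Without hot replicate 2, 1 member passed in hot against cold, beside 423 of all genes (2.19%). HSP101 had 21.6, 42.3, 30.2 and 28.7 CPM in hot, 27.4, 32.5, 32.3 and 18.99 CPM in warm and 28.6, 34.8, 32.04 and 26.3 CPM in cold leaves. All 3 groups overlapped, with hot against warm at 0.13 (95% interval -0.48 to 0.75). LOC_Os09g29840 and LOC_Os08g38086 were at -0.00 (95% interval -0.57 to 0.57) and -0.10 (-0.77 to 0.57) in hot against warm leaves. LOC_Os03g16860 had 590, 544, 850 and 706 CPM in hot, 734, 783, 563 and 533 CPM in cold and 1020, 928, 1523 and 1190 CPM in warm leaves. Both shifted groups were below all warm libraries, at -0.79 ± 0.34 (adjusted p = 0.728) and -0.83 ± 0.34 (adjusted p = 0.629). The extremes among members with few reads were LOC_Os04g01740, an HSP90 gene, at 1.74 ± 0.90 in hot and 2.00 ± 0.90 in cold leaves, and HSP17.7 at -1.40 ± 0.90 in hot leaves.

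The test of the change itself, the shift at 24 h minus the shift at 2 h, called 0 members for hot, where 0.513% of all genes were higher and 0.321% lower, and 0 for cold, where the share was 0%. At an unadjusted p under 0.05 there were 10 and 6 members, beside 2893 and 987 of all 19308 genes, so the 10 are close to the share over all genes. For HSFC2A the hot change moved by 2.22 ± 0.79 between the hours (adjusted p = 0.161), and for LOC_Os03g02260 by -0.86 ± 0.39 (adjusted p = 0.290). The absence of calls at 24 h and their presence at 2 h do not show that these members differed between the hours.

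In all, 22 members passed in at least 1 temperature comparison, 42 in at least 1 temperature or warm comparison, and 25 in none. HSFA1 was among the 25: it lay between 69.7 and 124 CPM in all 40 libraries, and its hot against warm change at 6 h, -0.26 ± 0.13, had an adjusted p of 0.224.

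Other genes of protein folding under heat (41 genes with clpB, GrpE, BAG, CS, FKBP and factor-binding products, with HSA32, MBF1C and DREB2B) gave 1 higher and 0 lower in hot than in warm leaves at 2 h, and 2 higher and 1 lower at 6 h. Over all genes, 3.63% were higher and 4.58% lower at 2 h, and 2.39% and 4.51% at 6 h. The FKBP-type isomerase LOC_Os02g51570 rose at both hours, by 1.38 ± 0.38 and 1.33 ± 0.38. HSA32 (LOC_Os06g46900), which is known to act with HSP101 in lasting thermotolerance in rice, rose by 1.68 ± 0.51 at 6 h (adjusted p = 0.0378). That change rested on 2, 3, 0 and 6 reads in warm and 10, 3, 8 and 7 reads in hot libraries, groups that overlapped in CPM near the floor. The BAG gene LOC_Os01g61500 fell by 0.56 ± 0.14. Hot against cold, 3 were higher and 2 lower at 2 h (6.73% and 8.32% of all genes) and 5 higher and 3 lower at 6 h (3.17% and 5.11%). Among them, the clpB gene LOC_Os02g08490 was at 0.99 ± 0.32 at 2 h and DREB2B (LOC_Os05g27930), a drought and heat transcription factor, at -0.59 ± 0.14. From warm 0 h to 6 h, 9 rose and 8 fell, where 24.3% of all genes rose and 19.6% fell. HSA32 was among those that fell, with 161, 105, 43 and 37 reads at 0 h and 2, 3, 0 and 6 reads at 6 h. MBF1C (LOC_Os06g39240), a heat-related coactivator, passed on 4, 10, 4 and 2 reads at 0 h and 0 in all 4 libraries at 6 h. The fitted folds of both depend on the offset and are not given.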

How the data were processed

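The authors deposited a table of log2 values per gene and library in the form limma voom writes: log2 of the read count plus 0.5, per 1000000 of a scaled library size. Per the submitters' processing notes, the tools were bcl2fastq, FastQC 0.11.2, Subread and featureCounts 1.5.0-p1, SAMtools 1.1-26, bedtools, edgeR 3.4.2 and limma 3.20.1, with build IRGSP-1.0. For the strand setting, the low-count filter, the scaling method and reads shared by near-identical genes, the choice is not given in the sources used here. Values of HSP90 paralogs, of small heat shock protein paralogs that sit side by side, and of genes that overlap others, are uncertain. Libraries were stranded, from 61-cycle single-end reads, per the labels.

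Reads were recovered from the deposited values: 100% came out whole within 0.001. CPM printed here are these reads over the scaled library size. The deposited log2 values of all 19308 genes entered a linear model of the 10 groups (limma 3.58.1, R 4.3.3; empirical Bayes with trend and robust estimation). Tests were two-sided and a member was called where its p, adjusted by Benjamini-Hochberg over all genes in that comparison, was under 0.05. Changes are log2 differences with the SE of the fit, n = 4 libraries a group. A count model was not used, since the deposited unit is log2. The fit was run on simulated data without a lane effect, which cannot show how lane bears on the calls.

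The members, gene lists, subfamilies and comparisons were chosen with earlier results of these data known. Named genes are the called members, the highest and lowest of each subfamily, its largest change in each shift, and HSFA1, HSP16.0, LOC_Os08g39140 and LOC_Os04g01740. Library values are shown for 22 members. The libraries were treated as unpaired: no comparison had every same-numbered pair above a correlation of 0.1, although the 4 pairs of warm 2 h and warm 24 h, which enter the time course and the tests of the change, lay between 0.172 and 0.235. Alternatives covered the offset, a filter, 2 scalings, the variance model, voom weights, the replicate block, lane, only the groups compared, each library left out and, added after the data were seen, the 2 libraries that stand apart left out and values within shared lanes. Tables and plots used pandas 2.3.3, matplotlib 3.10.9 and numpy 2.4.6 under Python 3.11.15. No genome sequence was used here.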

Additional observations from a re-analysis of the deposited data

Results flagged for a closer look

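In 20 of 220 groups (22 members in 10 groups of 4 libraries), 1 library lay far from the other 3 by Dixon's criterion, which chance meets in about 1 group in 20. Hot 6 h replicate 2 had 6 of the 20, all as the highest of its group: HSP101 at 20.8 CPM (others 6.20 to 8.37), LOC_Os08g39140 at 458 (133 to 181), LOC_Os05g38530 at 40.1 (5.19 to 8.57), LOC_Os01g62290 at 56.6 (9.93 to 15.3), HSP17.9A at 30.1 (6.09 to 6.42) and HSFA3 at 186 (25.5 to 38.2). Those genes belong to all 4 subfamilies.

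Warm 0 h replicate 1, which also correlated least with its group, had HSFA3 at 257 CPM (others 7.98 to 9.47) and HSFC1B at 0.467 CPM (others 0). Warm 0 h replicate 2 had LOC_Os01g62290 high at 302 CPM (68.8 to 102) and LOC_Os08g15230 low at 161 CPM (216 to 227).

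Cold 2 h replicate 2 was high for LOC_Os08g39140 at 457 CPM (256 to 289), LOC_Os11g47760 at 1033 CPM (640 to 667) and HSP16.0 at 5.14 CPM (0.960 to 1.62). Cold 24 h replicate 2 was low for LOC_Os03g02260 at 81.2 CPM (105 to 110) and high for HSP18.6 at 24.0 CPM (14.03 to 15.7), and replicate 3 was high for LOC_Os01g62290 at 308 CPM (236 to 237).

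The remaining 4 were LOC_Os08g38086 in hot 6 h replicate 1 (202 CPM, others 176 to 177), LOC_Os11g47760 in hot 24 h replicate 2 (2183 CPM, others 510 to 731), LOC_Os08g39140 in hot 24 h replicate 4 (365 CPM, others 419 to 427) and HSP18.6 in warm 6 h replicate 2 (0.673 CPM, others 1.58 to 1.75).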

How the results depend on the processing

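No call of a member changed direction under any alternative. Of 35 calls in temperature comparisons, 12 passed in all alternatives, 13 without each library, and 19 were lost with lane as a term. With lane as a term the counts were 2 for hot against warm at 2 h, 1 at 6 h, 9 for hot against cold at 2 h, 4 at 6 h and 0 for warm 24 h against 0 h, beside 553, 267, 1767, 957 and 391 of all genes (1584, 1333, 2907, 1599 and 564 without it). Fitted on only the groups compared, they were 15, 7, 22, 19 and 0, beside 2639, 2793, 3359, 4365 and 1 of all genes. Without the 2 libraries that stand apart they were 11, 6, 21, 14 and 0, beside 2705, 2110, 4123, 2384 and 110. For warm 6 h against 0 h, those 2 fits gave 23 and 32 calls, beside 6161 and 7871 of all genes. The main fit gave 34 there, beside 8472 of all genes. Voom weights gave 4 for hot against cold at 6 h, beside 1970 of all genes. For warm 24 h against 0 h they gave 0, beside 217 of all genes. That comparison gave 2 with quantile normalization and 0 with neither a trend nor robust estimation. Over all genes those were 337 and 411. The cause was not tested. Leaving out each library gave 3 to 6 calls (hot against warm 2 h), 2 to 4 (6 h), 7 to 14 (hot against cold 2 h), 4 to 9 (6 h), 0 to 1 (24 h), 30 to 36 (warm 6 h against 0 h), 0 to 8 (warm 24 h against 0 h) and 30 to 35 (warm time course), and 0 to 0 in the other 6 comparisons. Over all genes, in that order, the counts were 582 to 1690, 658 to 1131, 1664 to 2849, 1009 to 1312 and 0 to 423. They were 7565 to 8452, 42 to 1507 and 7660 to 8925 for the warm comparisons. The replicate block gave 6, 3, 17, 9, 34, 1 and 32 calls where the fit without it gave 6, 3, 18, 8, 34, 1 and 31, and 0 elsewhere. With the block, the calls over all genes were 1613, 1345, 2881, 1620, 8469, 536 and 8586. Without it, they were 1584, 1333, 2907, 1599, 8472, 564 and 8626. Members with fewer than 3 reads in a library, 0.293 to 2.06 CPM, carry fold changes that move with the offset.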

Other observations

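Some libraries were the highest of their group for many members: hot 6 h replicate 2 was the highest of 4 for 39 members (58.2% of 67), warm 6 h replicate 3 for 36 (53.7%) and warm 2 h replicate 3 for 32 (47.8%). Cold 2 h replicate 4 was the lowest of its group for 33 members. These ranks were not counted over all genes. Warm 6 h replicate 3 and warm 2 h replicate 3 had the fewest reads of their groups (3694465 and 3609271). The part of depth in these ranks was not tested.

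The share of reads taken by HSP70 genes was 0.247 to 0.466% in the warm 0 h libraries, 0.275 to 0.332% at warm 6 h and 0.417 to 0.467% at warm 24 h. In cold leaves it was 0.236 to 0.315% at 6 h and 0.444 to 0.613% at 24 h. Hot 24 h replicates 1 and 2 had 0.269% and 0.637%, the widest gap within a group.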
